A study of Mus musculus with 6 samples.

Results

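A set of 767 introns had a low share of split reads in control mouse embryonic stem cells, without Son knockdown. They were chosen by their control values: an intron, defined by chromosome, strand, start and end, had to be listed in all 4 total RNA libraries, to have at least 50 reads over its splice sites in each of the 2 controls, and to have a splicing efficiency of at most 0.5 in both controls. Splicing efficiency is the number of split (spliced) reads over all reads, split and unsplit, that cross the 2 splice sites of an intron. A low value describes the reads at these annotated sites. By itself it does not show that the gene's RNA keeps the intron. The 767 introns lay in 607 genes. They were 1.31% of the 58489 introns with 50 reads in each control and came from 68322 introns listed in all 4 libraries. The control efficiencies of these introns are therefore a description of the choice and are not tested.

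The cells were E14 mouse embryonic stem cells (129/Ola background), grown in serum and leukemia inhibitory factor and transfected with Lipofectamine 2000. The knockdown samples received Son siRNA and the controls received control siRNA, so all groups were transfected, and RNA was taken 24 h later. Total RNA depleted of ribosomal RNA came from 2 control and 2 knockdown samples, and Nanopore cDNA came from 1 control and 1 knockdown sample. The labels do not say that replicates were separate cultures, so p-values measure only the spread between these samples.

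Splicing removes introns from the primary transcript at a 5′ splice site, which usually begins with GT in the DNA, and a 3′ splice site, which usually ends with AG. Son codes for a large nuclear speckle protein that helps the spliceosome on introns with weak splice sites. Introns with few split reads include retained introns, which stay in the finished RNA, and detained introns, which stay in RNA held in the nucleus.

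Son itself had 4376 and 3251 spliced reads in the controls and 1380 and 1061 in the knockdowns, a log2 fold change of -1.61 (standard error 0.086; edgeR quasi-likelihood test, adjusted p = 3.82e-09). The libraries held 22550470 to 33405029 junction reads over the introns listed in all 4. Of the 11 embryonic stem cell markers examined, 10 had a listed intron, with 4589 to 4789 CPM (spliced reads scaled to the library total) summed over the list. For endoderm and mesoderm 2 of 7 markers were listed (5.07 to 6.56 CPM), for ectoderm 2 of 4 (3.53 to 4.51) and for fibroblast feeder cells 1 of 7 (1.16 to 2.19), and none of these genes held a member intron. The 2 knockdown libraries differed from each other more than the 2 controls did, with a chi-square per degree of freedom of 7.86 against 3.53 over the split reads of all introns, so neither pair was 1 library deposited again.

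Sequences are printed for some members, to show intron ends or the exon bases beside them. The first 6 are whole introns that lie inside a coding exon of a gene on the opposite strand, through whose transcript they could be read. Intron 1 (36 nt, GRCm39 chr12:31537529-31537564, + strand) and intron 2 (192 nt, chr12:31537634-31537825, +) of Gm29542 lie in Cbll1. Intron 1 of Gm13609 (112 nt, chr2:31907198-31907309, -) lies in Nup214, and intron 5 of Gm15886 (111 nt, chr3:103685434-103685544, +) lies in Hipk1. Intron 1 of Gm15270 (88 nt, chr10:24472824-24472911, -) lies in Ccn2, and intron 1 of Gm27232 (231 nt, chr9:72526526-72526756, -) lies in Rfx7. They are printed 5′ to 3′ on the strand of the host gene, with the first and last 2 bases of the intron in capitals.
Gm29542 intron 1: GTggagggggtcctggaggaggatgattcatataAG
Gm29542 intron 2: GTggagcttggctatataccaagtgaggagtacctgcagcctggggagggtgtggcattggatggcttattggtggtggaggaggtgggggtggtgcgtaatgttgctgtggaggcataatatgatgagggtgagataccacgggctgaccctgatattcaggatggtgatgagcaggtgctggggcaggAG
Gm13609 intron 1: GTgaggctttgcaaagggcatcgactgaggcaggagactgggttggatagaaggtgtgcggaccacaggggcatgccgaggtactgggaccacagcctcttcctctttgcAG
Gm15886 intron 5: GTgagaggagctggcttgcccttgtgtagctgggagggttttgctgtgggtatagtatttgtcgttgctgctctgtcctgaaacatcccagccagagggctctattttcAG
Gm15270 intron 1: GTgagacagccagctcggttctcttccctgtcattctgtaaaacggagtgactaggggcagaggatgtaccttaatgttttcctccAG
Gm27232 intron 1: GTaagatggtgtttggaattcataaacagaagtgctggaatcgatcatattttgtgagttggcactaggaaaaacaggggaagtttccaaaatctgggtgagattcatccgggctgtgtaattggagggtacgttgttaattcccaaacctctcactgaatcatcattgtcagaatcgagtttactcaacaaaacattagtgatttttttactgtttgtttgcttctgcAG
All 6 begin with GT and end with AG. Over the 104 matched members that an opposite-strand exon covers whole, 100 began with GT and ended with AG, 3 began with GC and ended with AG, and 1 had neither pair. Among other introns with 50 reads in each control and such a covering exon, 336 of 339 were GT to AG.

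Intron 1 of Gm17134 (61 nt, chr10:79699875-79699935, -) lies under the Ptbp1 gene and intron 1 of Gm11583 (220 nt, chr11:97052230-97052449, +) under Kpnb1. Both were among the deepest members, and only their splice sites are shown. The 5′ sites are 6 exon and 9 intron bases, the 3′ sites are 12 intron and 3 exon bases, and capitals mark the intron's terminal bases.
Gm17134 intron 1, 5′ site: atagagGTggctgtg
Gm17134 intron 1, 3′ site: gcacagtcagAGgcg
Gm11583 intron 1, 5′ site: acagttGTatttagt
Gm11583 intron 1, 3′ site: tgcggttttgAGtgt

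The next 8 are the exon bases joined by splicing in members with no annotated opposite-strand exon at a splice site, 15 nt before and 15 nt after the intron, with the last 3 bases of the upstream exon in capitals. They are 2 of the deepest members (Mid1 and Ftl1), 5 members called in the knockdown, and an intron of the SR protein kinase gene Clk2.
Mid1 intron 8: agctgaagaccaACAgtcagccgtttagac
Ftl1 intron 3: cgcgcggaccctCATctctgtgacttcctg
Epn1 intron 4: gaggaggccgacCAGcccccgtcctgcggc
Tmc8 intron 11: cagcctgcctcgAAGgctgttagtggagcg
Wrap53 intron 5: gcttacaaccacCTGgatgagttgacagca
Celf5 intron 9: tccagcagtacaCAGccatgtatcccaccg
Mbd6 intron 6: gaggagaaaataCAAaagtctctcaccagc
Clk2 intron 10: ttcaccctcttcCAGacccatgacaacaga
The upstream exon ended in G in 5 of these 8. Over the 736 members with exon sequence the exon ended in AG in 56.0% and in G in 78.7%, against 57.4% and 81.0% of the 57504 other introns. The next exon began with G in 47.8% of members and 48.8% of the others. On these letters the members resembled other introns. All sequences come from GENCODE M21 transcripts, whose build is GRCm38, through the transcript, the intron number and the length, and the coordinates are those of the deposited tables.

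Member introns were distributed over the whole range that the rule allows. Median splicing efficiency was 0.204 and 0.192 in the controls and 0.187 and 0.159 in the knockdowns. Other introns with 50 reads in each control had medians of 0.947, 0.941, 0.943 and 0.933 in the same order, so knockdown replicate 2 was the lowest library in both sets. Of the 767 members, 148 (19.3%) had no split read in either control, and 124 had none in any library. A further 145 had a control mean above 0 and up to 0.1, 200 lay between 0.1 and 0.3, and 274 lay between 0.3 and 0.5. Although the members were a small share of the introns, they held 6.78% and 6.63% of all unsplit reads in the controls and 6.45% and 6.29% in the knockdowns, against 0.0775% to 0.0855% of all split reads.

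**Figure D1:**
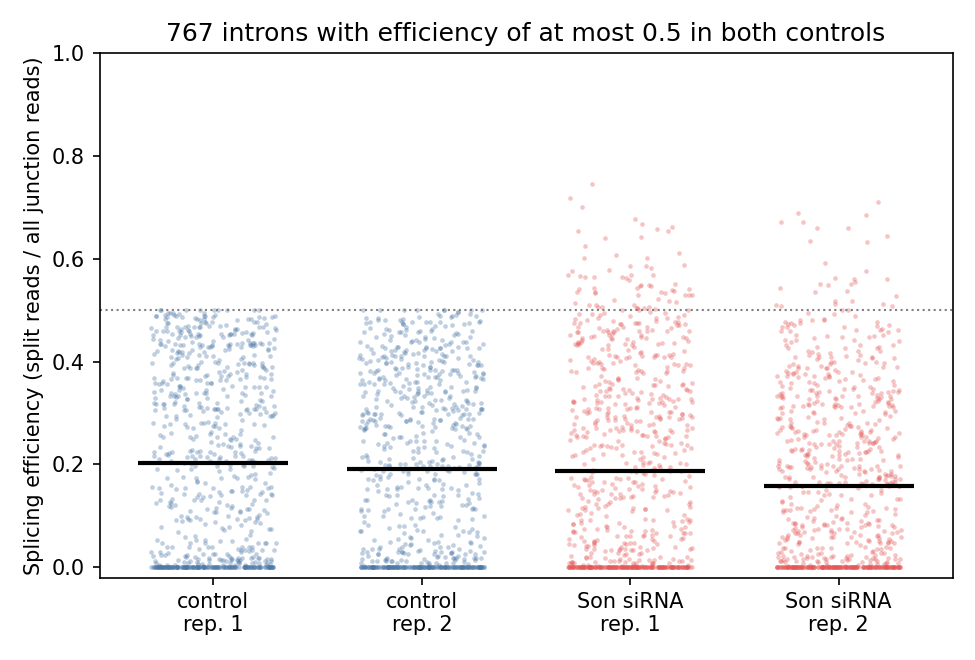
Splicing efficiency (y axis, split reads over all reads at the splice sites) of each of the 767 members (points) in each of the 4 total RNA libraries (x axis), with the median as a bar and the limit of 0.5 as a dotted line. The medians run from 0.204 in control replicate 1 to 0.159 in knockdown replicate 2, and 66 and 30 members lie above the limit in the 2 knockdown libraries.

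Members just inside the limit had values like those of introns just outside it. Chd2 intron 3 (Chd2 is a chromatin remodeller) had control efficiencies of 0.5 and 0.399, Agap3 intron 8 had 0.5 and 0.410, and Orc4 intron 1 had 0.429 and 0.5. Outside the limit, Srsf4 intron 1 (an SR splicing factor gene) had 0.502 and 0.452, Orc3 intron 13 had 0.502 and 0.431, and Arhgap12 intron 8 had 0.503 and 0.479. The Chd2, Orc4 and Srsf4 introns are numbered in models with no coding sequence.

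The deepest members belonged to 2 kinds of host. Gm17232 intron 1 (3833 nt, chr14:63731219-63735051, +), which an exon of the threonine dehydrogenase gene Tdh overlaps on the opposite strand, had efficiencies of 0.0235 and 0.0191 in the controls and 0.0201 and 0.0287 in the knockdowns, from 1814 to 3069 reads. The 4 libraries overlap, and all stay close to 0. Gm29542 intron 2 had 0.0143, 0.0331, 0.0559 and 0.0222, and its neighbour intron 1 had 0 and 0.00308 in the controls and 0 and 0.00253 in the knockdowns. Cbll1, on the other strand, codes for a ubiquitin ligase of the RNA m6A writer complex.

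For Gm17134 intron 1, opposite the splicing repressor gene Ptbp1, 2 of 2567 reads were split in control replicate 1 and none of 1741, 2506 and 1740 in the other libraries. Gm11583 intron 1, opposite the importin beta gene Kpnb1, had 0 split reads of 1839, 1291, 2152 and 1465. A count of 0 allows up to 0.139% to 0.232% there, if no read is counted at both splice sites. A split read can be counted at both, and the limits are then higher. Gm45894 intron 3, opposite the chromatin regulator gene Ankrd11, also had 0 of 1889, 1220, 1867 and 1396. The Gm names denote predicted or non-coding genes, and these introns had almost no split reads in any library.

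Mid1 intron 8 and Ftl1 intron 3 were deep members in protein-coding genes with no opposite-strand exon at a splice site, although an annotated gene on the other strand spans the Mid1 intron and has an exon inside it. Mid1 codes for a microtubule-associated ubiquitin ligase, and its intron 8 (1461 nt, chrX:168769094-168770554, +) had 0.448 and 0.454 in the controls and 0.534 and 0.405 in the knockdowns. Knockdown replicate 1 was above both controls and knockdown replicate 2 below. Ftl1 codes for the ferritin light chain, and its intron 3 (251 nt, chr7:45107708-45107958, -) had 0.176, 0.152, 0.167 and 0.154. Ftl1 has processed copies elsewhere in the genome, so how the authors' counting shared reads among them is uncertain. Hnrnpa2b1 intron 11 (486 nt, chr6:51438414-51438899, -), in the 3′ untranslated region of an RNA-binding protein gene, had 0.340, 0.317, 0.312 and 0.241, lowest in knockdown replicate 2.

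Among members with at least 100 reads in every library, the lowest knockdown values were the 3 opposite-strand introns of Gm17134, Gm11583 and Gm45894, followed by Tvp23a intron 5 (opposite Nubp1) and Gm17344 intron 2 (opposite Ap1g1), all with 0 split reads in both knockdowns. Many members shared that value, and these 5 had the most reads. At the other end, Plk4 intron 11 (Plk4 is the kinase that starts centriole duplication) had 0.460 and 0.461 in the controls and 0.662 and 0.509 in the knockdowns. Hsp90b1 intron 1 (an endoplasmic reticulum chaperone) had 0.467 and 0.425 against 0.625 and 0.458. Ankrd10 intron 4 had 0.358 and 0.431 against 0.517 and 0.549, Glud1 intron 1 (glutamate dehydrogenase) had 0.494 and 0.412 against 0.546 and 0.511, and Bptf intron 5 (a subunit of the NURF remodeller) had 0.394 and 0.341 against 0.602 and 0.446. None of these 5 passed the single-intron test (adjusted p 0.571 to 0.929, edgeR). Both knockdown values were above both controls in 4 of them, which were picked for high knockdown values, and in 13% of all introns with 50 reads in each control.

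The rule did not use the annotation around the introns. An exon on the opposite strand overlapped a splice site in 187 of 737 members matched to the annotation (25.4%), against 2.23% of the 57527 other matched introns, and it covered the whole intron in 104 members (14.1%) against 0.589%. The host was annotated as an antisense gene for 116 members (15.7%), and only 5 of the other introns had such a host. Read the other way, 95.9% of the 121 covered introns of antisense genes were members, while 0.848% of the 54275 covered introns with no opposite gene were. None of the 737 members overlapped an annotated exon of the same strand. Only 19 of the 57527 other matched introns did (0.033%), so this does not set the members apart.

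Whether the authors counted reads by strand is not given in the sources used here. For a member with an opposite-strand exon at its splice site, unsplit reads of the host gene and reads of the opposite gene then cannot be told apart. These 187 members had median efficiencies of 0.00538 and 0.00496 in the controls and 0.00500 and 0 in the knockdowns, and 73 of them had no split read in the controls. The 460 members with no opposite gene had medians of 0.307, 0.286, 0.286 and 0.226. Over all 1471 introns with an opposite-strand exon at a splice site and 50 reads in each control, the median control efficiency was 0.915. Of these, 12.7% were members. What part reads of the opposite gene have in the low values was not tested.

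**Figure D2:**
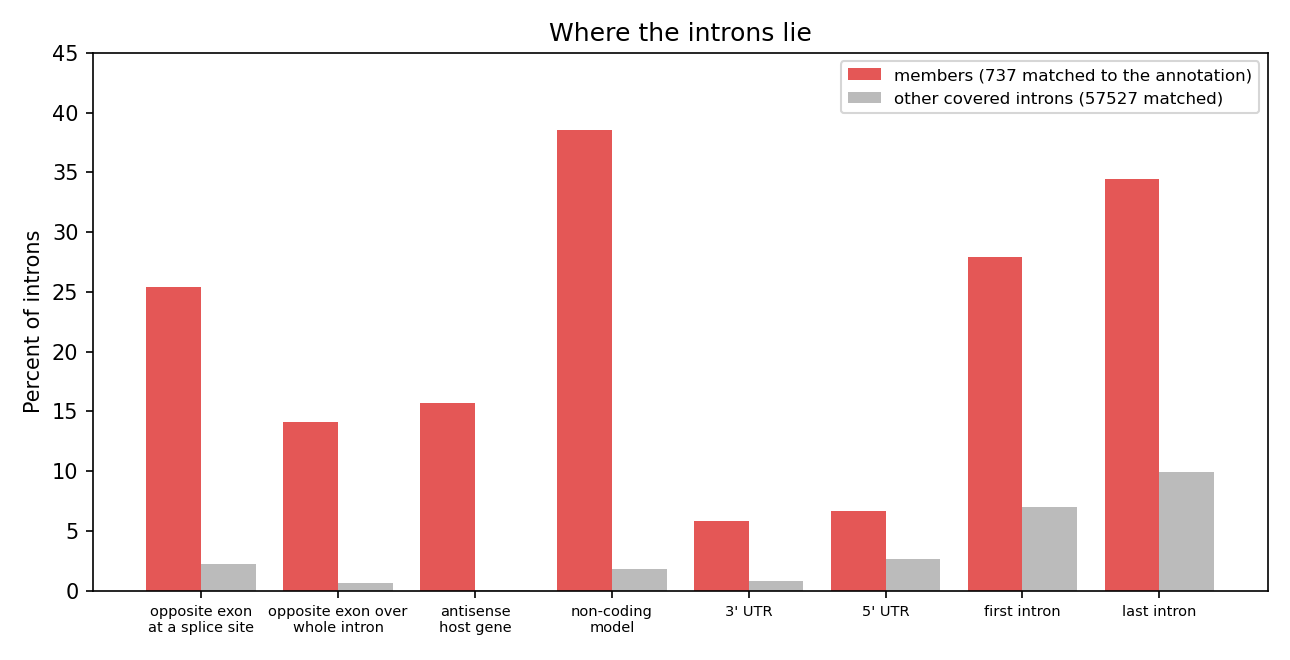
Percent of introns (y axis) with each annotation feature (x axis) for the matched members (red) and for the other matched introns with 50 reads in each control (grey). The bars for an opposite-strand exon at a splice site reach 25.4% and 2.23%, and those for a non-coding model 38.5% and 1.77%.

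By position in the transcript model, 361 members (49.0%) lay between coding exons, 49 (6.65%) in a 5′ untranslated region, 43 (5.83%) in a 3′ untranslated region, and 284 (38.5%) in models with no coding sequence. The corresponding shares of other introns were 94.8%, 2.62%, 0.775% and 1.77%. Median control efficiencies were 0.294 and 0.274 for coding members, 0.208 and 0.2 for those in 3′ untranslated regions, and 0.0199 and 0.0263 for those in non-coding models. Models of nonsense-mediated decay, the pathway that removes RNAs with early stop codons, held 6.78% of members and 0.765% of the others.

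Many members stood at the ends of short models. The first intron of the model made up 28.0% of members and 6.98% of other introns, the last intron 34.5% and 9.94%, and the model had a median of 6 introns against 16. A model's only intron counts as both first and last, and made up 11.8% of members and 0.527% of other introns. Position was not separated from the number of introns in the model. Length differed less, with a median of 820 nt for members and 1109 nt for the others, and 7.82% and 6.82% were at most 100 nt long. The shortest member was the 36 nt intron 1 of Gm29542, and the longest had 54306 nt.

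Most hosts held a single member, and the introns next to a member were low as well. Of 584 host genes of members listed under 1 gene, 464 held 1 member, 90 held 2 and 30 held 3 or more. In 163 of them the member was the only listed intron. The other 2909 listed introns of the hosts had medians of 0.899 and 0.883 in the controls and 0.893 and 0.870 in the knockdowns. Listed introns directly upstream of a member in the same model had a median control efficiency of 0.554 (n = 257) and those directly downstream 0.534 (n = 264), and 34.6% and 35.2% of them were members too. For the neighbours of other introns the medians were 0.946 and 0.944.

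The hosts with most members were Sfi1 with 8 of 18 listed introns, Acadvl with 7 of 13, and Kansl1l, Pvt1 and Tsnaxip1 with 5 each. Sfi1 codes for a centrosomal protein, and the medians of its members were 0.151 and 0.133 in the controls and 0.127 and 0.0980 in the knockdowns. Its other introns had medians of 0.652, 0.703, 0.609 and 0.595. Sfi1 has further copies in the mouse genome, so these values are uncertain. Acadvl codes for a mitochondrial enzyme of fatty acid oxidation. Its members had medians of 0.242, 0.206, 0.232 and 0.0866, lowest in knockdown replicate 2, and 3 of them have an exon of Dvl2 on the opposite strand at a splice site.

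Kansl1l members had medians of 0.0225, 0.0263, 0.0941 and 0.0244. The higher value of knockdown replicate 1 was not shared by knockdown replicate 2, and its intron 11 had 0.252 in the former and 0 in the latter. The 5 members of Tsnaxip1, a little-characterised gene, had medians of 0, 0.0108, 0 and 0. None of the 30 members of these 5 genes passed the test (adjusted p 0.104 or higher, edgeR, for the tested ones).

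In some members the split reads were unequal at the 2 ends of the intron. Such shares are not given for other introns, so this is not read as particular to the members. With the controls pooled, the 5′ splice site was split in over 0.5 of its reads and the 3′ site in at most 0.1 for 40 members, and the reverse held for 57. In 266 members (34.7%) both sites were at most 0.1, and in 161 (20.99%) both lay between 0.1 and 0.5. The knockdowns showed the same asymmetry: the 40 members had medians of 0.650 at the 5′ site and 0.00324 at the 3′ site in the controls, and 0.658 and 0 in the knockdowns. The 57 had medians of 0.0105 at the 5′ site and 0.673 at the 3′ site in the controls, and 0.0102 and 0.700 in the knockdowns.

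Hnrnpa2b1 intron 11 is the deepest of the 97. Its 3′ site had 625 split and 154 unsplit reads in the controls and its 5′ site had 88 split and 1293 unsplit. In the knockdowns these were 508 and 169, and 98 and 1390. Zmynd8 intron 15 (a chromatin reader) had 62 split of 100 reads at the 3′ site and 62 of 717 at the 5′ site in the controls. Prmt3 intron 3 (an arginine methyltransferase) showed the opposite, with 265 split and 154 unsplit reads at its 5′ site and 0 split and 184 unsplit at its 3′ site. In such introns a single efficiency averages a used site and a nearly unused one.

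**Figure D3:**
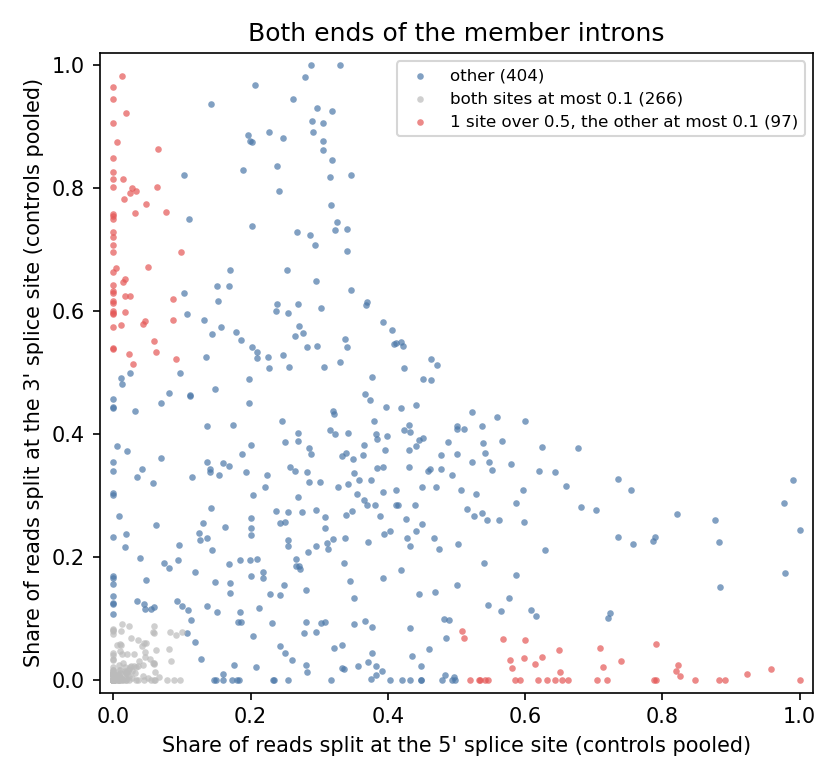
Share of reads split at the 5′ splice site (x axis) and at the 3′ splice site (y axis) of each member, both from the 2 controls pooled. Points on the left and bottom edges in red are the 97 members with 1 site over 0.5 and the other at most 0.1, and the grey points are the 266 with both at most 0.1.

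Unsplit reads themselves were balanced between the ends. In the controls 393 of 767 members (51.2%) had more unsplit reads at the 5′ site than at the 3′ site, and in the knockdowns 403 (52.5%). Among other introns with at least 50 unsplit reads in the controls the share was 51.9%. Over 2 in 3 of the unsplit reads lay at the 5′ site in 28.3% of members and at the 3′ site in 21.9%, against 24.2% and 22.4% of the other introns.

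The comparison of knockdown with control asks whether introns whose efficiency was already low lost further efficiency when Son was reduced. The median change over the 767 members was 0 on the scale of efficiency, with the middle of the members from -0.032 to 0.024 (quartiles). It was lower in the knockdown for 347 members, higher for 296 and equal for 124, which had no split read at all. Members with no split read in the controls hold that median at 0. By control mean, the median change was -0.00159 above 0 and up to 0.1, -0.00324 from 0.1 to 0.2, -0.0116 from 0.2 to 0.3, -0.00991 from 0.3 to 0.4 and -0.0120 from 0.4 to 0.5. For the 550 members that could be tested it was -0.00395, against -0.00418 over all 63309 introns tested. For the other 57722 introns with 50 reads in each control the median change was -0.00368, and 58.4% were lower. Equal changes in efficiency are not equal changes in odds when the control efficiencies differ. The median log2 odds ratio of unsplit to split reads, knockdown against control, was 0.0271 for the 550 members. It was 0.123 over all 63309 introns tested. The control values that chose the members also enter these medians, so no difference from the background is read from them.

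Control values entered the choice, so the change was also computed with the control that the choice did not use. The 1095 introns chosen by control replicate 1 alone had a median change of 0 against control replicate 2. The 1053 chosen by control replicate 2 alone had a median change of -0.00375 against control replicate 1. Choosing introns in the 2 knockdown libraries in place of the controls gave 1047 introns, of which 631 were members (82.3% of the members and 60.3% of that list). The median change of these 1047 was -0.0330, and here the knockdown values entered the choice. The size of the median change thus depended on which group chose the introns.

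Both knockdown values lay below both controls in 129 members (16.8%), and above both in 97 (12.6%). Over all introns with 50 reads in each control these shares were 24.3% and 13% as background. No value can lie below a control of 0, which 165 members had in control replicate 1 and 188 in control replicate 2. The share of members below both controls is therefore not compared with the background. Among the 550 members that could be tested, both knockdown values lay below both controls in 117 and above both in 93. Of the members, 17 exceeded an efficiency of 0.5 in both knockdown libraries and 62 in only 1, while 688 stayed at or under it in both.

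A single-intron test was possible for 550 members, and the other 217 had under 10 split reads over the 4 libraries. Of the 550, 10 were called (edgeR quasi-likelihood test on split and unsplit reads, Benjamini-Hochberg adjusted over all 63309 introns tested), 7 with lower and 3 with higher efficiency in the knockdown. Over all introns tested, 1.76% were called, 1.71% lower and 0.0442% higher, and the members' share was 1.82%, 1.27% lower and 0.545% higher. The control values that chose the members also enter this test, and it was not repeated with a control that the choice did not use, so no difference from the background is read from these shares. Before adjustment, 48 members had p under 0.05 (8.73%, 35 lower and 13 higher), against 9.72% of all introns tested (8.11% lower and 1.61% higher).

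The calls depended on the tool and on single libraries. DESeq2 called 2 of the 10, Meg3 and Ino80e, and 285 of all introns. On log odds, limma called 0 members, with 43 at an unadjusted p under 0.05, and 0 of all introns. In edgeR, 2 members and 171 of all introns were called without control replicate 1, 1 and 452 without control replicate 2, 16 and 1427 without knockdown replicate 1, and 5 and 678 without knockdown replicate 2. With all libraries, 1112 introns were called.

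**Figure D4:**
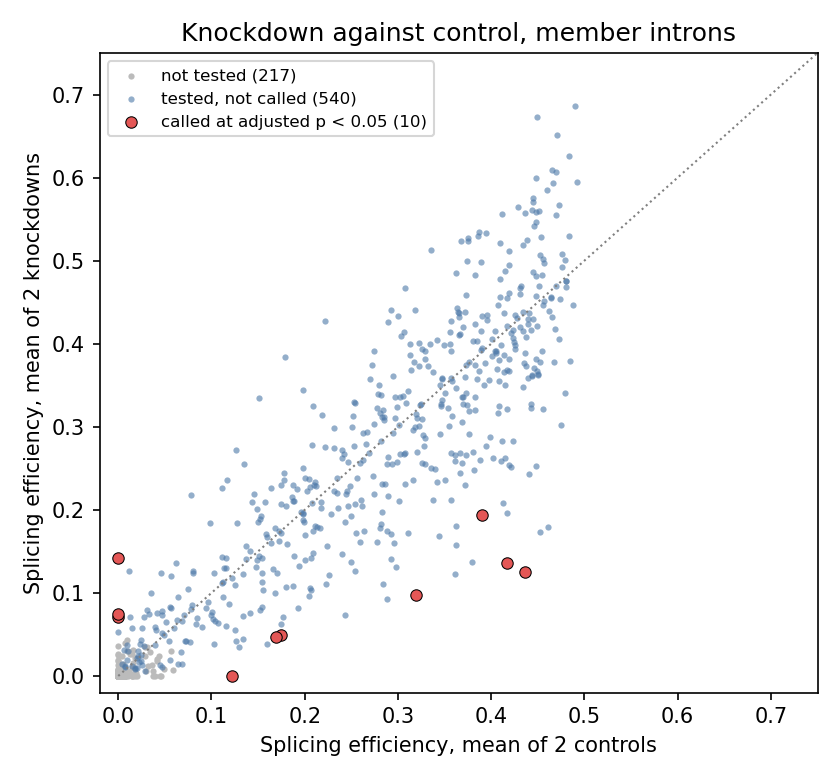
Mean splicing efficiency of the 2 knockdowns (y axis) against the mean of the 2 controls (x axis) for each member, with equality as a dotted line. Red points are the 10 called members, blue points the other tested members, and grey points the 217 not tested, which lie near 0.

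Meg3, an imprinted long non-coding RNA, held the member with the smallest adjusted p among those called lower. Its intron of 2021 nt (chr12:109512426-109514446, +) had efficiencies of 0.140 and 0.198 in the controls and 0.0461 and 0.0471 in the knockdowns, from 425 to 629 reads. Both knockdowns were below both controls. The log2 odds ratio of unsplit to split reads was 2.03 (standard error 0.42; edgeR, adjusted p = 0.00113). At the 5′ site alone it was 2.04 (edgeR, adjusted p = 0.0206). The 3′ site alone did not reach the minimum of reads for the test. The adjusted p was from 2.14e-05 to 0.331 over the alternatives, and 0.115 without control replicate 2. The spliced reads over Meg3's other introns did not pass (log2 fold change -0.13, adjusted p = 0.752).

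The largest fall was in an unnamed gene, ENSMUSG00000120961, whose intron of 2329 nt (chr16:55934262-55936590, -) had 0.444 and 0.429 in the controls and 0.0926 and 0.159 in the knockdowns (log2 odds ratio 2.49, standard error 0.68; edgeR, adjusted p = 0.0256). Epn1 codes for epsin, an adaptor of endocytosis. Its intron 4 (346 nt, chr7:5095965-5096310, +) had 0.415 and 0.418 in the controls and 0.205 and 0.0662 in the knockdowns (log2 odds ratio 2.24, standard error 0.57; edgeR, adjusted p = 0.0146). In both introns the groups do not overlap, and the knockdowns differ from each other more than the controls do. Epn1 was not called without control replicate 1 (0.209), control replicate 2 (0.139) or knockdown replicate 2 (0.374), all adjusted p by edgeR.

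Tmc8 codes for a transmembrane channel-like protein, and an annotated gene on the other strand spans its intron 11 without an exon in it. Its intron 11 (127 nt, chr11:117681607-117681733, +) had 0.368 and 0.271 in the controls and 0.116 and 0.0779 in the knockdowns (edgeR, adjusted p = 0.0189). Wrap53 codes for a telomerase and Cajal body protein, and its intron 5 (110 nt, chr11:69454263-69454372, -) had 0.469 and 0.311 against 0.222 and 0.166 (edgeR, adjusted p = 0.0468). The spliced reads of these 2 genes outside their members were also fewer in the knockdown. For Tmc8 they were 566 and 397 in the controls and 294 and 258 in the knockdowns (log2 fold change -0.75, edgeR adjusted p = 0.00176). For Wrap53 they were 978 and 848 against 617 and 471 (-0.73, edgeR adjusted p = 0.000683). The other hosts of called members that could be tested did not pass, with log2 fold changes of -0.16 for Epn1, -0.34 for Celf5, -0.02 for Mbd6 and -0.01 for Ino80e (edgeR adjusted p 0.120 to 0.990), as for Meg3.

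Celf5 codes for an RNA-binding splicing regulator, and its intron 9 (1546 nt, chr10:81300255-81301800, -) had 0.157 and 0.192 in the controls and 0.0676 and 0.0314 in the knockdowns (edgeR, adjusted p = 0.0487). Mbd6 codes for a methyl-CpG-binding domain protein. Its intron 6 (229 nt, chr10:127119032-127119260, -) had 0.0339 and 0.211 in the controls and 0 in both knockdowns, of 64 and 42 reads, so its control values differ widely (edgeR, adjusted p = 0.0396). It passed the minimum of 10 split reads only through the controls, the group where it is higher, and could not be tested without control replicate 2. With no such minimum its edgeR adjusted p was 0.0489. Without knockdown replicate 1 the edgeR adjusted p was 0.176 for the Mbd6 intron and 0.173 for that of ENSMUSG00000120961. The ENSMUSG00000120961 intron also lost the call without either control (0.194 and 0.312). Celf5, Tmc8 and Wrap53 lost it without either control or without knockdown replicate 2 (0.0576 to 0.838), and Mbd6 without knockdown replicate 2 (0.136).

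The 3 members called higher had no split read in the controls. They passed the minimum of 10 split reads only through the knockdowns, where they are higher: of the 148 members with no split read in the controls, the 4 that could be tested include these 3. With no such minimum they were called as well (edgeR adjusted p 0.000637 to 0.0299), and their calls are given as a description. Ino80e codes for a subunit of the INO80 chromatin remodeller, and an exon of Hirip3 overlaps its intron 1 (256 nt, chr7:126461190-126461445, -) on the opposite strand. The Ino80e intron had 0 split of 114 and 82 reads in the controls. This allows up to 2.63% and 3.66% if no read is counted at both sites, and more otherwise. It had 6 of 76 and 20 of 98 in the knockdowns (efficiencies 0.0789 and 0.204; edgeR, adjusted p = 0.000868). Gm26590 intron 1, opposite the chromatin remodeller gene Chd8, had 0 of 104 and 78 reads against 2 of 108 and 14 of 108 (edgeR, adjusted p = 0.0302). Ccdc39, a gene of ciliary axonemes, had 0 of 123 and 73 reads in intron 14 against 6 of 100 and 6 of 73 (edgeR, adjusted p = 0.0263). These calls rest on few split reads, and a read that spans the intron can be counted at both sites. Without control replicate 1 none of the 3 was called (edgeR adjusted p 0.116 to 0.485). Without control replicate 2 only the Ino80e intron was called (0.0334), and without knockdown replicate 2 none of the 3 could be tested. Without knockdown replicate 1 the Ccdc39 intron could not be tested.

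**Figure D5:**
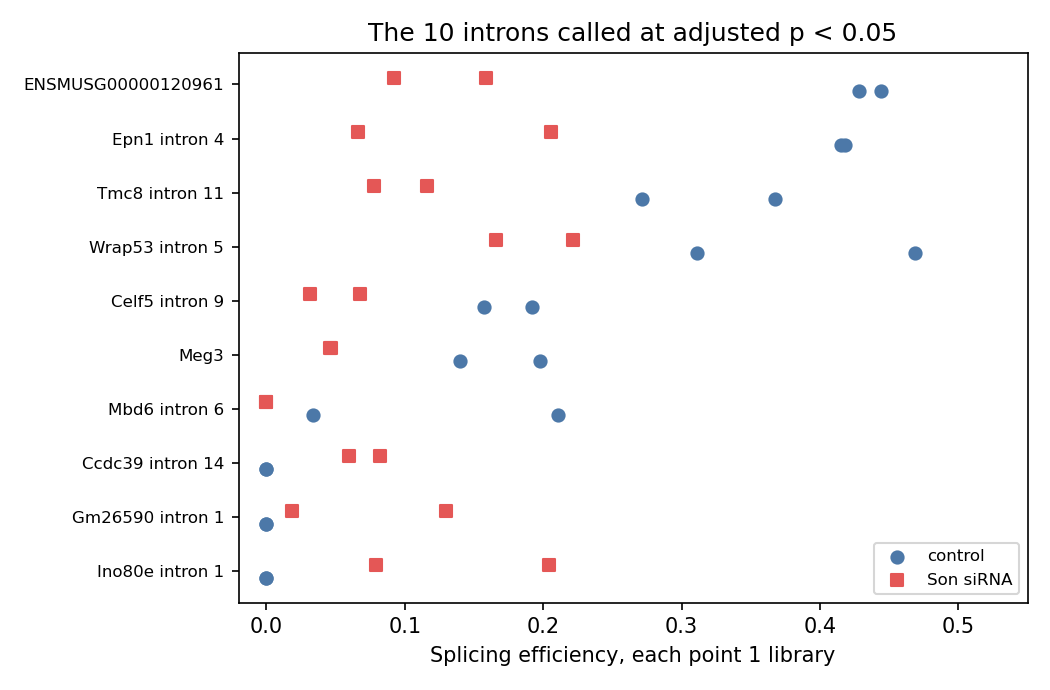
Splicing efficiency (x axis) of the 10 called members (y axis) in each library, with controls as circles and knockdowns as squares. In all 10 the knockdown values lie on 1 side of the control values, from a fall of the ENSMUSG00000120961 intron from 0.444 and 0.429 to the rise of the Ino80e intron from 0.

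Among genes for SR proteins, their kinases and splicing partners, 37 of 38 had a listed intron. Of 198 introns with 50 reads in each control, 6 were members (3.03%, against 1.31% of all such introns). None of the 6 was called. Clk2 codes for a kinase that phosphorylates SR proteins, and its intron 10 (151 nt, chr3:89082548-89082698, +) had 0.464 and 0.457 in the controls and 0.183 and 0.175 in the knockdowns. The groups do not overlap, but the adjusted p was 0.0984 (edgeR). Clk2 spliced reads outside this intron were 855 and 557 in the controls and 398 and 257 in the knockdowns (log2 fold change -1.08, standard error 0.12; edgeR, adjusted p = 9.75e-06).

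The other 5 members of that list had adjusted p from 0.866 to 0.996 (edgeR). Srsf11 intron 4, in a non-coding model, had 0.0936 and 0.0952 in the controls and 0.0718 and 0.0924 in the knockdowns. Luc7l2, which codes for a U1 snRNP-associated factor, had 0.173, 0.100, 0.135 and 0.147 in intron 1, and 0.325, 0.281, 0.277 and 0.258 in intron 2. In Srsf11, in this second Luc7l2 intron and in Hnrnpa2b1 both knockdowns were below both controls, by less than 0.1. With Clk2 these are 4 of the 6 members, and 24.3% of all introns with 50 reads in each control had this order. Snrnp70, which codes for a U1 snRNP protein, had 0.407, 0.443, 0.494 and 0.376 in intron 1 of a non-coding model. Over the whole list 7 of 205 tested introns were called lower and 0 higher, where 1.71% of all introns tested were called lower.

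Nuclear long non-coding RNAs held 14 members among 30 introns with 50 reads in each control (46.7%), in 6 of the 8 listed genes, against 1.31% of all introns. Pvt1 held 5, Xist 3, Mirg and Lncenc1 2 each, and Meg3 and Mir17hg 1 each. Only the Meg3 intron was called. Lncenc1, an RNA of naive stem cells, had 0.364 and 0.438 in the controls and 0.327 and 0.443 in the knockdowns in its 817 nt intron. Mir17hg, the host of a microRNA cluster, had 0.0172, 0.00457, 0.0410 and 0.0192. The Pvt1 members ranged from 0 to 0.510 and the Xist members from 0.0152 to 0.2 over the 4 libraries, and an opposite-strand gene spans the Xist introns.

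In the remaining lists members were few. They were 2.44%, 2.22%, 1.22% and 0.262% of the introns with 50 reads in each control, in the order below, against 1.31% of all. Of 41 introns of small nucleolar RNA hosts with 50 reads in each control, the 1 member was Nop58 intron 4, in a gene for a core protein of these particles, with 0.282 and 0.198 in the controls and 0.292 and 0.233 in the knockdowns. Of 45 introns in genes known for detained introns, which stay in the nucleus after transcription, the member was Mdm2 intron 6 with 0.367, 0.364, 0.460 and 0.360. Of 164 introns of nonsense-mediated decay factors, members were Upf2 intron 2 (0.198, 0.130, 0.242 and 0.210) and Smg6 intron 8 (0.310, 0.349, 0.493 and 0.291). The Upf2 intron is numbered in a non-coding model. Of 382 introns of chromatin and transcription genes, the member was Brd2 intron 10 (0.385, 0.478, 0.491 and 0.429). None of these 5 was called. Over the tested introns, 0 of 41 were called lower for small nucleolar RNA hosts and 0 of 47 for detained introns. For decay factors 1 of 168 was called lower, and for chromatin and transcription genes 30 of 381. None was called higher in these lists. Over all introns tested, 1.71% were called lower and 0.0442% higher. In Upf2 both knockdowns were above both controls, an order found in 13% of all introns with 50 reads in each control. In the other 4 the groups overlapped.

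Spliced reads of the host genes were counted at the 5′ sites of their other introns. Of 358 host genes tested, 23 had fewer and 6 had more in the knockdown (edgeR, adjusted over 9424 genes). This was 6.42% and 1.68%, near the 6.73% and 1.87% of all genes, of which 8.6% were called in either direction. The largest fall was in Fbxw5, a ubiquitin ligase component, with 93 and 69 reads in the controls and 30 and 18 in the knockdowns (log2 fold change -1.73, standard error 0.29; edgeR, adjusted p = 0.000581). The lysosomal mannosidase gene Man2b1 had 2480 and 1765 against 1238 and 881 (-0.97, edgeR adjusted p = 1.05e-06). The related Man2c1 had 1150 and 796 against 547 and 417 (-0.97, edgeR adjusted p = 8.23e-06).

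Among the 6 hosts with more spliced reads, Eif4g3, a translation initiation factor gene, had 2028 and 1456 against 2893 and 1747 (0.42, edgeR adjusted p = 0.0049), and Zmynd8 had 3032 and 2119 against 3575 and 2748 (0.34, edgeR adjusted p = 0.00937). The reads printed are not scaled for library size, as the fold changes are. The count of 29 hosts moved to 16 without control replicate 1, 18 without control replicate 2, 81 without knockdown replicate 1 and 49 without knockdown replicate 2.

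Long reads were a separate measurement of the same genes in polyadenylated RNA, with 3080426 reads in the control and 1874851 in the knockdown library. The labels name a knockdown sample as the starting material of both libraries, so how the long-read control relates to the total RNA samples is unclear. There was 1 library per condition, so no difference between them was tested, and intervals (95% Wilson) cover counting error only. A read can be assigned only to annotated models, so retention of an intron that no model retains is not counted. For 334 members in 269 genes with at least 20 reads in both libraries, the models that splice the intron out took a median of 21.4% of the gene's long reads in the control and 20.04% in the knockdown. For 42430 other introns the medians were 94.95% and 95.2%. No read lay on such a model for 25 members (7.49%) in the control and 47 (14.1%) in the knockdown, which has fewer reads. For the other introns these counts were 472 (1.11%) and 648 (1.53%). Over 50% of reads lay on such models for 132 and 130 members. Members of 1 gene share these reads.

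Single members fell at both ends of this range. For Snrnp70 the non-coding model carrying its member intron took 0 of 815 reads in the control and 0 of 546 in the knockdown (up to 0.469% and 0.699% by the interval). For Nop58 intron 4 it was 5 of 839 (0.596%) and 3 of 516 (0.581%). For Hnrnpa2b1 intron 11 the share was 27.1% (25.2 to 29.0) and 27.1% (24.8 to 29.5). Plk4 intron 11 had 11.3% (8.17 to 15.3) and 9.55% (6.05 to 14.8). In these introns most long reads came from other models of the gene.

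In contrast, all 1520 and 744 Ftl1 long reads lay on models that splice intron 3, although its efficiency in total RNA was 0.152 to 0.176. Epn1 intron 4 was in the models of 54 of 54 reads in the control and 19 of 20 in the knockdown. Hsp90b1 intron 1 had 95.2% (93.5 to 96.5) and 94.9% (92.6 to 96.5), Mid1 intron 8 had 89.4% (86.0 to 92.1) and 87.6% (82.8 to 91.1), and Mdm2 intron 6 had 88.2% (85.0 to 90.8) and 94.4% (91.2 to 96.5). These are introns with an efficiency near or under 0.5 in total RNA whose long reads were nearly all assigned to models without them.

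Models annotated as retaining an intron took 11.9% (11.6 to 12.2) of the long reads of 197 host genes in the control and 12.4% (12.05 to 12.9) in the knockdown, a difference of 0.564 percentage points. In 3750 other genes the shares were 9.87% and 10.5%, a difference of 0.669 points. The hosts thus had a higher share than the other genes in both libraries. Without the 100 most abundant transcripts, the other genes had 12.04% and 12.8% against 11.9% and 12.4% in the hosts, so the order of hosts and other genes reversed.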

How the data were processed

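Per the labels, the authors ran SPLICE-q and deposited, for each intron, split and unsplit read counts at its splice sites and the efficiency as a fraction from 0 to 1. Checked on the tables, the deposited fraction equals split reads over all reads, and each listed site had at least 10 reads. The submitters' processing notes name GRCm39, SAMtools and minimap2, and other settings and use of strand are not given in the sources used here. For long reads the authors deposited counts per transcript, per the labels.

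Introns were tested with edgeR 4.0.16 (R 4.3.3) quasi-likelihood on split and unsplit reads, with a term per library, for unsplit reads and for unsplit reads in the knockdown, needing 10 split and 10 unsplit reads over the libraries. Spliced reads per gene used edgeR with TMM. DESeq2 1.42.0 and limma 3.58.1 (pseudocount 0.5) were alternatives, with each library left out. On simulated data, edgeR recovered 82% of introns with an odds ratio of 4 (more unsplit reads) and 38% with an odds ratio of 0.25 (fewer) for knockdown against control (63309 introns, not members alone). The simulation used a fixed spread between libraries that was not fitted to these data. Its shares are therefore not the power of the test in these libraries. Scipy 1.17.1 gave the intervals. Of the 767 members 737 matched GENCODE M21. Intron numbers count along 1 matched transcript model per intron, a protein-coding model where any matched. They need not be those of the gene's main transcript. Named introns were the deepest, the largest called changes, the extremes in the knockdown, those nearest the limit, hosts with most members, and members in gene lists. Introns chosen beyond this rule illustrate unequal splice sites or sequences and were picked after their values were seen. The members and lists were chosen with earlier results of these data known.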

Additional observations from a re-analysis of the deposited data

How the results depend on the processing

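The number of members called, 10 in the edgeR fit, was 9 with no filter and 19 (15 lower, 4 higher) with split and unsplit reads scaled separately, a set that held all 10. It was 1 with the 5′ site alone, 1 with the 3′ site alone, 2 with DESeq2 and 0 with limma (43 at an unadjusted p under 0.05), and from 1 to 16 with 1 library left out. Over all introns 1112 were called in the edgeR fit. In the same order the other fits called 1093, 1064, 232, 322, 285 and 0, and from 171 to 1427 with 1 library left out. For the single called introns, the call was kept in 44 of 99 alternatives and lost in 55, with no change of direction. The 99 leave out the alternatives in which an intron had too few reads to be tested. With the replicate block, 12 members were called, 9 of them among the 10 (Mbd6 had an edgeR adjusted p of 0.0507), the median change stayed at 0, and 37 host genes were called against 29. The replicate numbers share only a number: the correlation of the control and knockdown differences between replicates was 0.00852 over all introns with 50 reads in each control and 0.104 over the members. The median change in efficiency over the members, or over introns chosen by a single control, lay between -0.00457 and 0. This included tested members only (-0.00395) and members without an opposite-strand exon at a splice site (0), which were added after the data were seen. For the introns chosen in the knockdown libraries it was -0.0330, where the knockdown values in the change also chose the introns. The number of members was 566 with a limit of 0.4, 318 with 100 reads in each control, and 1047 with the knockdown libraries in place of the controls. The share of members with most unsplit reads at the 5′ site was 28.3% when over 2 in 3 of the reads were required and 46.7% over the 392 members with 50 unsplit reads at both sites. Host genes called were from 16 to 81 with 1 library left out and from 27 to 34 with DESeq2, library totals, no filter or member introns included. The difference in long reads on models that retain an intron was 0.564 and 0.677 points without the most abundant transcripts and with 50 reads per gene.
Low counts limit the members: the least covered library of a member had a median of 83 reads, and 63 members had under 50 reads in a knockdown library. In the simulated data 8% of introns with an odds ratio of 2 were recovered over all introns tested, and recovery was not measured for members alone.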
